A study of Mus musculus with 8 samples.

Results

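The variable (V) segments of the immunoglobulin heavy chain were followed in RNA-seq libraries of mouse jejunum, which lies between duodenum and ileum. Every row of the count table whose GENCODE M21 symbol starts with Ighv was taken, which gave 185 of 56941 rows, with 183 symbols in 16 subfamilies. All 185 lie on mouse chromosome 12, and the annotation lists 113 as functional V genes, 2 as a separate V gene class and 70 as V pseudogenes. One group was of the inbred strain C57BL/6, written B6 here, and the other of C3H/HeJ, written C3H, and each had 4 libraries. All mice were naive, carried no other listed allele or agent, and were aged 6 to 8 weeks. The strains had shared cages for at least 8 weeks before harvest, and the labels do not say whether the age was taken at the start of that time. The labels do not state either that each library is a separate mouse, so p-values measure the spread between libraries, which may be partly technical. The work belongs to a study of food anaphylaxis and leukotrienes, and the labels define the strain comparison alone.

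A heavy chain variable domain is built in developing B cells by joining 1 V segment to a D and a J segment, and the joined exon is then spliced to a constant region. A differentiated plasma cell transcribes its rearranged heavy chain gene at a very high level, so V segment reads in gut tissue come mainly from plasma cells, most of which make IgA there. Cells of 1 clone carry the same V segment. V segments are grouped into subfamilies by sequence likeness, and the number after Ighv names the subfamily. Pseudogenes are segments that cannot encode a complete V domain or lack a signal for rearrangement. The reference genome comes from C57BL/6, and heavy chain haplotypes differ between inbred strains. Reads of both strains were assigned to rows named for B6 segments, and what a row's count in C3H stands for in that strain's own germline was not tested.

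Sequences of the segments on which the results turn show how near or far related rows can be in sequence. They are taken from the V exon, here the last exon of the longest GENCODE M21 transcript (build GRCm38, a C57BL/6 sequence), are written 5′ to 3′, and are numbered from 1 at the start of that exon. Capitals mark the bases at which the members of a pair differ. Ighv1-55, lower in C3H, and the pseudogene Ighv1-62, higher in C3H, differed at 9 of 304 aligned bases over the whole exon, and Ighv1-62 had 1 base fewer, inside the stretch shown. The first line gives bases 61 to 180 of Ighv1-55 and the second bases 61 to 179 of Ighv1-62, with the base that Ighv1-62 lacks also in capitals in the first line.
Ighv1-55: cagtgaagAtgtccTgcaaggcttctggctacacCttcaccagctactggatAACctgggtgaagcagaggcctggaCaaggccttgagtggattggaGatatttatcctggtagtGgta
Ighv1-62: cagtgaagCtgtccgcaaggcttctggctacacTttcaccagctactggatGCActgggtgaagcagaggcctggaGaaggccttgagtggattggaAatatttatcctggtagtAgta

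Ighv1-75, lower in C3H, and Ighv1-84, higher in C3H, differed at 12 of 305 bases, 10 of them between bases 151 and 270, which are shown because the strain difference ran in opposite directions on near copies.
Ighv1-75: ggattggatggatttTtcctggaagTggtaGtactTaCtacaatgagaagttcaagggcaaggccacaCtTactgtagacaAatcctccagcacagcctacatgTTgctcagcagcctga
Ighv1-84: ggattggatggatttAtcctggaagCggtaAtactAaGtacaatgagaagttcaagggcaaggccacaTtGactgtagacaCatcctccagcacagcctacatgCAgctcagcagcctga

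In subfamily Ighv9, Ighv9-3 was close to absent in C3H and Ighv9-4 was present in both strains. Over the whole exon Ighv9-4 differed from Ighv9-3, its nearest relative, at 26 of 305 bases. Bases 81 to 200 of both are shown, with 18 differences in 120 bases.
Ighv9-3: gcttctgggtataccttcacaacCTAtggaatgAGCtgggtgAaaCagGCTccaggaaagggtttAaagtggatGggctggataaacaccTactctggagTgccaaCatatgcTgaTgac
Ighv9-4: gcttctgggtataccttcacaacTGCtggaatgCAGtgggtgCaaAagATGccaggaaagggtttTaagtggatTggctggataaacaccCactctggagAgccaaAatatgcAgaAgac

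The pseudogene Ighv1-14, one of the most abundant Ighv rows in C3H, is shown with its nearest relative Ighv1-83, a pseudogene that was not tested for low counts. They differed at 28 of 305 bases, and at 18 of the 120 bases from 81 to 200.
Ighv1-14: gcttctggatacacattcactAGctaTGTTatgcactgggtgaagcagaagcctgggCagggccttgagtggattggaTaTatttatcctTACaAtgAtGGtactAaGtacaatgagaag
Ighv1-83: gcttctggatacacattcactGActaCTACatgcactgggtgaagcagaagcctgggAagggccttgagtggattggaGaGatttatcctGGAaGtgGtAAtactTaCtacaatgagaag

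The libraries held 37205896 to 58251332 counts, and the 6 jejunal epithelium genes Vil1, Fabp1, Apoa4, Sis, Lct and Gata4 summed to 32630 to 52330 counts per 1000000 library counts (CPM, with library sizes scaled by edgeR's TMM factors) in all 8. Of the 4 ileal markers, Fabp6 was close to 0 (0.0113 CPM in B6 and 0.112 CPM in C3H), Slc10a2 was at 1.40 and 1.24 CPM, and the bile acid transporter subunits Slc51a and Slc51b were at 216 and 154 CPM and at 79.8 and 37.8 CPM. The last 2 were lower in C3H (edgeR adjusted p = 0.0259 and 0.000495). Libraries of the same strain differed by far more than counting noise, with a chi-square of 21.2 to 81.2 per degree of freedom, so no pair agreed within counting noise. That value does not say whether they came from separate mice. Marker lists also set single libraries apart. Summed over 8 B cell markers, B6 replicate 3 was at 56.4 CPM against 13.1 to 17.1 CPM in the other B6 libraries and 15.6 to 28.2 CPM in C3H. Summed over 7 pancreas genes, C3H replicates 3 and 5 were at 2127 and 964 CPM, B6 replicate 2 at 184 CPM and the other libraries at 7.17 to 59.7 CPM, and 0 of the 6 tested were called between strains. The part of the ileal, B cell and pancreas genes in the results below was not tested, beyond the values given without single libraries.

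V segment counts were higher in B6 than in C3H. Replicates 2, 3, 4 and 5 of B6 had 38396, 37939, 45122 and 63783 Ighv counts, and replicates 1, 3, 4 and 5 of C3H had 28585, 27459, 23223 and 20209. Scaled to depth, the B6 libraries were at 1020, 930, 834 and 1185 CPM and the C3H libraries at 561, 527, 594 and 543 CPM. The groups did not overlap, with means of 992 ± 149 CPM (SD, n = 4) and 556 ± 28.7 CPM (SD, n = 4), a 1.78-fold higher mean in B6. The lowest C3H value was in the library richest in pancreatic transcripts and the next lowest in the second richest. B6 did not follow that order. Its library richest in pancreas genes, replicate 2 (184 CPM), had 1020 CPM of Ighv counts, and the poorest, replicate 4 (7.17 CPM), had the lowest B6 total, 834 CPM. Of 4 T cell markers, Cd3e, Cd3d and Cd8a were also lower in C3H (log2 fold changes -1.15, -1.11 and -0.80, edgeR adjusted p = 0.000208, 0.000199 and 0.000688) and Cd4 was higher (log2 fold change 0.43, edgeR adjusted p = 0.0128). Their sum was 62.4 to 77.7 CPM in B6 and 40.02 to 55.1 CPM in C3H, without overlap, and the part of these cells in the V segment totals was not tested. In bulk tissue, fewer antibody-secreting cells, less RNA per cell and C3H reads not assigned to rows named for B6 segments cannot be told apart.

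Of the genes that mark antibody-secreting cells, Igha and Jchain gave a scale for the difference in Ighv totals. Other plasma cell markers, which did not all run the same way, are given further below. Igha, the IgA constant region, took 97.85% to 99.4% of heavy chain constant region counts in every library. Its level was 5203 ± 1092 CPM in B6 and 3733 ± 685 CPM in C3H (SD, n = 4), with overlapping libraries, and it did not pass the test (log2 fold change of C3H over B6 -0.48, SE 0.20, edgeR adjusted p = 0.112). Jchain, which links IgA monomers into dimers, fell from 1194 ± 118 to 858 ± 129 CPM (SD, n = 4), with a log2 fold change of -0.48 (SE 0.13, edgeR adjusted p = 0.0233). That call was lost without B6 replicate 2 (edgeR adjusted p = 0.0558), C3H replicate 3 (0.0913) or C3H replicate 5 (0.0515). Per 100 heavy chain constant counts, the B6 libraries had 17.6 to 20.7 Ighv counts and the C3H libraries 11.8 to 17.1, again without overlap. Per 100 counts of Igkc, the kappa light chain constant region, the means were 34.1 ± 4.16 and 24.2 ± 5.19 (SD, n = 4), and the groups did not overlap either. Fewer Ighv counts were thus assigned in C3H relative to constant region counts as well as to depth.

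**Figure D1:**
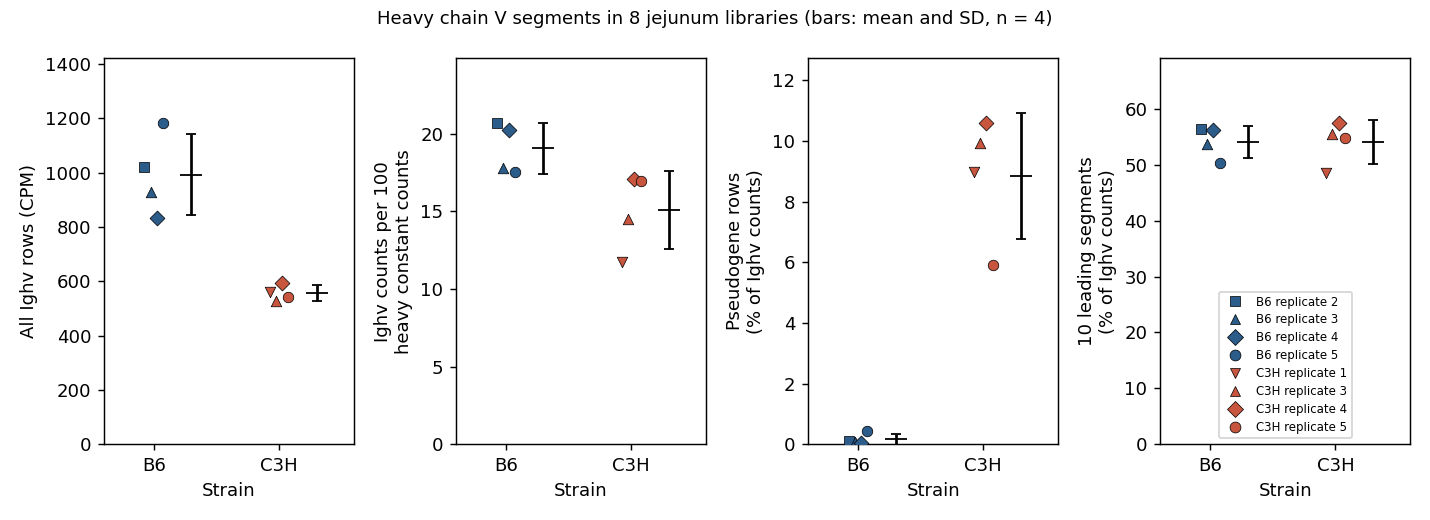
Points are libraries, with a symbol for each replicate number, and bars are the mean and SD of 4 libraries; the panels give the summed Ighv level in CPM, Ighv counts per 100 heavy chain constant counts, the percent of Ighv counts on pseudogene rows and the percent held by the 10 leading segments. The B6 libraries lie above all C3H libraries in the first 2 panels, the C3H libraries lie between 5.90% and 10.6% in the next where B6 stays below 0.441%, and the strains overlap in the last.

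Of the 185 rows, 51 had 0 counts in all 8 libraries and 44 had too few counts to be tested, which left 90 tested rows. Of the 51 silent rows 42 were pseudogenes, and the other 9 included Ighv16-1, the only member of its subfamily. Among the 90, 20 were higher in C3H and 39 were lower at an edgeR adjusted p under 0.05, and 31 were not called. Over all 18025 genes tested, 11.3% were higher in C3H and 10.1% were lower. Of the tested segments, 18 had all 4 C3H libraries above all 4 B6 libraries, against 12.7% of all tested genes, and 35 had all B6 libraries above all C3H libraries, against 11.7% of all tested genes. The median log2 fold change of C3H over B6 was -1.16 over the 90 segments and 0.025 over all genes; it was also -1.16 with the 11 segments at 0 to 3 counts over a strain set at their bound or ratio. Rows were kept for the test on the level of either strain, and 33 of the 90 reached 10 counts in every library of 1 strain only, so these counts describe the rows that passed and not all members. Of the 54 rows with at least 10 counts in all 8 libraries, 7 were higher, 22 were lower and 25 were not called. No matching share was taken over all genes at that level, so these 3 counts have no background of their own.

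Of the 90 tested segments, 11 were called at least 10-fold higher in C3H and 28 at least 10-fold lower. Of all tested genes, 0.721% were called at least 10-fold higher and 0.732% at least 10-fold lower. Rows that passed the filter through 1 strain are among them. For such rows the filter favoured a difference between strains, although not every one of them was called. Ranking the segments by their share of a library's Ighv counts gave Spearman correlations of 0.907 to 0.922 between B6 libraries and 0.936 to 0.949 between C3H libraries, and of 0.646 to 0.698 between a B6 and a C3H library. Pearson correlations of the shares were 0.639 to 0.717 between B6 libraries, 0.743 to 0.896 between C3H libraries and 0.120 to 0.311 between a B6 and a C3H library. These values are across the 185 rows, which share the libraries, and are a description. The ranks include the 51 rows with 0 counts in all 8 libraries, which are tied.

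**Figure D2:**
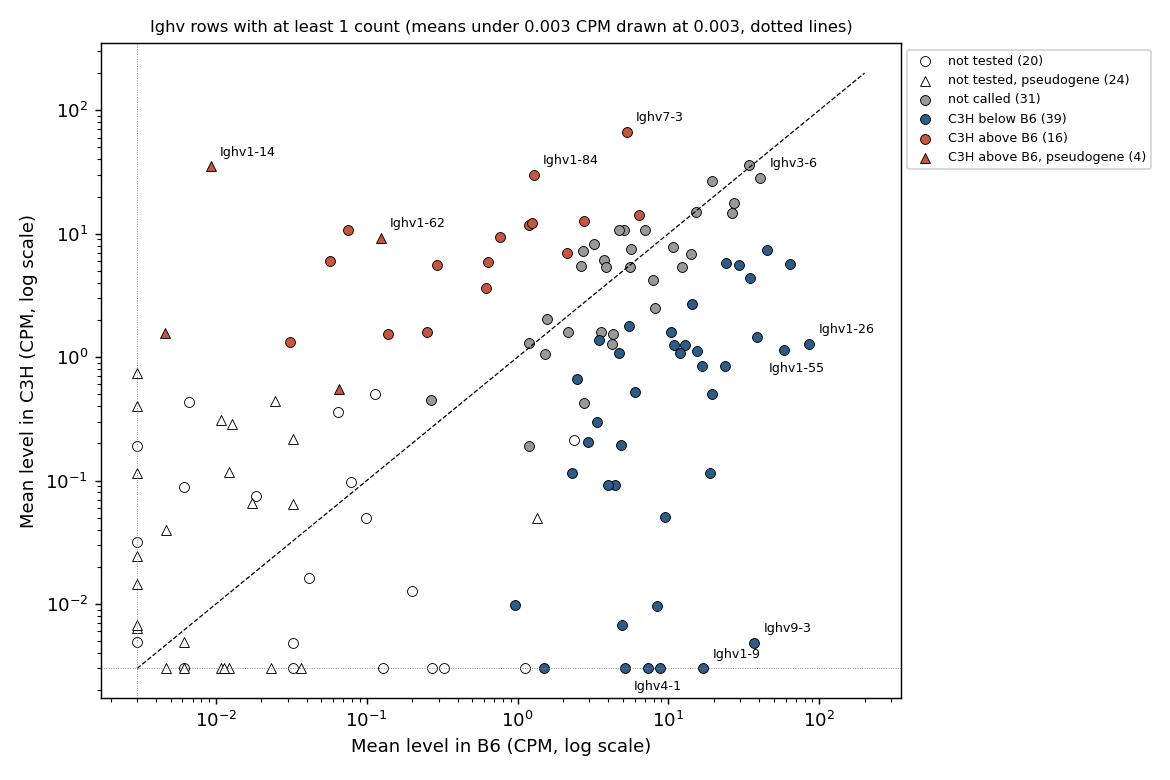
Each point is 1 of the 134 Ighv rows with any count, placed by its mean CPM in B6 and in C3H on log axes; triangles are pseudogenes, colours give the call, open symbols were not tested, and means under 0.003 CPM are drawn at 0.003. Ighv1-26 and Ighv1-55 sit far below the dashed line of equal level, Ighv7-3, Ighv1-84 and the pseudogene Ighv1-14 sit far above it, and Ighv3-6 lies near it.

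The leading B6 segments belonged mostly to subfamily Ighv1, the large group long known as the J558 family. Ighv1-26 (ENSMUSG00000094546) was the most abundant, at 82.1, 135, 63.2 and 65.0 CPM in the B6 libraries and at 1.33, 1.23, 1.61 and 0.940 CPM in the C3H libraries. Every B6 library was far above every C3H library, and the fitted level was 67.2-fold higher in B6 (log2 fold change of C3H over B6 -6.07, SE 0.29, edgeR adjusted p = 1.1e-07). Ighv1-39 followed with 104, 42.7, 58.6 and 49.2 CPM in B6 and 7.91, 2.44, 7.37 and 5.08 CPM in C3H, 11.2-fold higher in B6 (log2 fold change -3.48, SE 0.38, edgeR adjusted p = 6.1e-05). Ighv1-55 had 56.6, 45.7, 48.5 and 81.6 CPM in B6 and 0.903, 1.02, 1.94 and 0.698 CPM in C3H, and was 51.2-fold higher in B6 (log2 fold change -5.68, SE 0.30, edgeR adjusted p = 2.8e-07). These 3 segments thus separated the strains in all 8 libraries, with C3H counts of 26 to 403 per library that were low but not 0.

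Ighv1-34 reached 19.4, 39.6, 60.7 and 59.7 CPM in B6 and 5.04, 5.84, 9.87 and 8.76 CPM in C3H, a 6.11-fold difference (log2 fold change -2.61, SE 0.34, edgeR adjusted p = 0.000244). Ighv1-81 stood at 89.5 CPM in B6 replicate 2, at 18.8, 20.6 and 25.0 CPM in the other B6 libraries, and at 1.00, 0.288, 3.63 and 0.940 CPM in C3H. It was 27.0-fold higher in B6, with no overlap (log2 fold change -4.75, SE 0.73, edgeR adjusted p = 0.00073). Its fold rests partly on 1 library, since the log2 fold change was -3.93 without B6 replicate 2 and -5.71 without C3H replicate 4.

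In B6 only, 6 segments were seen, which here means at least 10 counts in every B6 library and 0 counts in C3H. They were 6.82% of the 88 members with at least 10 counts in every library of a strain; over all such genes the share was 0.177%. No segment met the reverse rule, which 0.0742% of all such genes met. Ighv1-9 (ENSMUSG00000094694) had 351, 358, 711 and 1989 counts in B6, and against a floor of 3 counts over the 4 C3H libraries was at least 1094-fold higher there, or 640.5-fold without replicate 5. Ighv1-76 had 74, 785, 299 and 455 counts, at least 517-fold higher in B6, or 340.1-fold without replicate 3. Ighv4-1, the functional member of its subfamily, had 354, 418, 334 and 183 counts, at least 413-fold higher. Ighv1-54 had 222, 190, 175 and 364 counts, at least 305-fold higher. Ighv1-85 and Ighv9-2 completed the group with 275 and 206 counts over the 4 B6 libraries, bounds of 88.2-fold and 66.1-fold. The call of Ighv1-76 ended under robust dispersion (edgeR adjusted p = 0.0508, against 0.000722), and 0 counts do not show that C3H lacks these segments.

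A further 4 had 1 or 2 counts over C3H. Ighv9-3 (ENSMUSG00000096459) had 1363, 1438, 1296 and 2884 counts in B6 and a single count in C3H replicate 3, a ratio of 6718 with a 95% counting interval of 1205 to 265400. For Ighv1-58, 883 counts over B6 stood against 1 over C3H (ratio 849.7, interval 152.1 to 33600). For Ighv1-36 it was 168 against 2 (ratio 80.8, interval 22.0 to 673). The B6 libraries held 1069, 33, 16 and 235 counts of Ighv9-1 against 2 over C3H (ratio 651, interval 179.9 to 5381), and replicate 2 gave most of them. Its call depended on the method, with an edgeR adjusted p of 0.00618 against 0.0584 with limma-voom and 0.0527 with robust dispersion. Intervals and floors cover counting error only.

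Among segments with at least 10 counts over C3H, the largest falls besides Ighv1-26 and Ighv1-55 were in Ighv2-3, Ighv1-75 and Ighv1-66. Ighv2-3 had 16.5, 12.4, 0.776 and 8.47 CPM in B6 and at most 0.0981 CPM in a C3H library, a 163-fold difference (log2 fold change -7.35, SE 1.006, edgeR adjusted p = 0.000329). B6 replicate 4 was the low one, and it was still above every C3H library. Ighv1-66 had 1.46 to 7.30 CPM in B6 and 0 to 0.161 CPM in C3H (log2 fold change -5.50, SE 0.64, edgeR adjusted p = 9.8e-05). Ighv1-75 is given with the library-specific peaks below.

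The most abundant row in C3H was Ighv7-3 (ENSMUSG00000076652), at 43.6, 83.3, 63.1 and 76.5 CPM, while the B6 libraries had 3.61, 4.58, 2.62 and 10.4 CPM. Every C3H library was above every B6 library, by 12.5-fold in the fit (log2 fold change 3.64, SE 0.39, edgeR adjusted p = 5.7e-05). Ighv1-84 had 24.3, 14.7, 71.6 and 9.59 CPM in C3H and 0.319, 2.45, 1.77 and 0.613 CPM in B6, 23.2-fold higher in C3H (log2 fold change 4.54, SE 0.72, edgeR adjusted p = 0.000942). C3H replicate 4 was the high one, and without it the log2 fold change was 3.65 (edgeR adjusted p = 0.00105). Ighv1-23 had 7.42, 14.0, 16.2 and 5.05 CPM in C3H, and 3, 0, 0 and 12 counts in B6. Its fitted fold was 129 (log2 fold change 7.01, SE 0.65, edgeR adjusted p = 1.8e-05), and the log2 fold change was 8.70 without B6 replicate 5, which held 12 of the 15 counts. The last exon of Ighv1-23 differed at 5 of 305 bases from that of Ighv1-15, so its row is uncertain. Ighv1-15 had 15.6 to 47.8 CPM in B6 and 8.27 to 26.1 CPM in C3H and was not called (log2 fold change -0.63). Ighv2-6-8 had 6.91, 2.88, 10.001 and 2.42 CPM in C3H and 0.0531 to 0.490 CPM in B6, with no overlap (log2 fold change 4.20, SE 0.56, edgeR adjusted p = 0.000282).

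Ighv2-6 was called nearest to the threshold among the rises. Its C3H libraries had 1.29, 4.61, 3.02 and 5.64 CPM and its B6 libraries 0.239, 0.711, 0.0370 and 1.47 CPM, so the groups overlapped (log2 fold change 2.53, SE 0.68, edgeR adjusted p = 0.0211). The call was lost without B6 replicate 2 (edgeR adjusted p = 0.0540), without C3H replicate 3 (0.0547), without C3H replicate 5 (0.0509) and with robust dispersion (0.0931), and without B6 replicate 5 the log2 fold change was 3.52.

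Pseudogene rows carried 5.90%, 8.97%, 9.92% and 10.6% of the Ighv counts of C3H replicates 5, 1, 3 and 4. In B6 they carried 0.0377% to 0.441%. Of the 70 pseudogenes 4 had enough counts to be tested. They passed through their C3H counts, so the direction of their calls was set by that filter and is no result about pseudogenes as a class. Ighv1-14 (ENSMUSG00000104422) made up most of the pseudogene counts, with 1849, 2068, 1770 and 714 counts in C3H. B6 gave 2 counts, both in replicate 5. The C3H libraries stood at 36.3, 39.7, 45.3 and 19.2 CPM, and the ratio of C3H to B6 was 3326 with a counting interval of 920.3 to 27470. Ighv1-62 had 7.65, 9.43, 13.3 and 6.66 CPM in C3H and 3, 1, 2 and 19 counts in B6, a 68.5-fold difference (log2 fold change 6.10, SE 0.48, edgeR adjusted p = 5.5e-06; log2 fold change 7.58 without B6 replicate 5). Ighv1-33 had 100, 55, 76 and 50 counts in C3H and a single count in B6 replicate 4, a ratio of 292 (51.98 to 11570). Ighv1-21 had 21, 14, 36 and 23 counts in C3H and 1, 2, 3 and 7 in B6 (log2 fold change 2.92, SE 0.51, edgeR adjusted p = 0.00175).

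The reference sequences of these pseudogenes differ in kind. Read in the frame of the functional segments, in which 111 of the 115 other rows have no stop codon in the V exon, the exon of Ighv1-14 holds 0 stop codons, like that of 5 of the 70 pseudogenes including itself. The exons of Ighv1-62, Ighv1-33 and Ighv1-21 hold 4, 3 and 1. Ighv1-62 and Ighv1-33 are 304 bases long, 1 fewer than Ighv1-14 and Ighv1-21. These are features of the B6 reference, and the C3H reads themselves were not analysed here. Among the untested pseudogenes, Ighv1-86 had 120 counts over C3H and 0 in B6, Ighv1-28 had 75 and 0, and Ighv1-2 went the other way with 274 counts in B6, 224 of them in replicate 5, and 9 in C3H.

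Ighv3-6 and Ighv5-17 were the only 2 segments with at least 20 CPM on average in each strain. Ighv3-6 had 55.9, 16.7, 45.2 and 45.2 CPM in B6 and 32.2, 27.5, 20.4 and 33.0 CPM in C3H, with overlap. It was not called (log2 fold change -0.53, SE 0.30, edgeR adjusted p = 0.251), although without B6 replicate 3, the lowest library, it was (log2 fold change -0.79, edgeR adjusted p = 0.00656). Ighv5-17 had 27.1, 14.8, 13.5 and 81.5 CPM in B6 and 45.9, 21.4, 36.8 and 40.2 CPM in C3H (log2 fold change 0.07, SE 0.50, edgeR adjusted p = 0.940). Its B6 mean rested on replicate 5, and without that library it was higher in C3H (log2 fold change 0.96, edgeR adjusted p = 0.0437). A p above the threshold does not show that the strains had the same level.

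The subfamily totals changed the balance of the repertoire in the counts. Ighv1, with 93 rows, took 66.4%, 71.6%, 73.7% and 66.1% of Ighv counts in the B6 libraries and 45.01%, 45.01%, 54.4% and 43.7% in C3H. Its summed level was 685 ± 70.6 CPM in B6 and 263 ± 40.9 CPM in C3H (SD, n = 4), 2.61-fold higher in B6 with no overlap. Of its 49 tested rows 9 were higher in C3H and 28 were lower. Over the 90 tested segments 22.2% were higher and 43.3% lower, and over all tested genes 11.3% and 10.1%. Subfamily Ighv9 stood further apart, at 67.0, 40.1, 27.3 and 59.1 CPM in B6 and 0.785, 3.51, 1.51 and 2.36 CPM in C3H, a ratio of 23.7. Of its 370 counts in C3H, 367 were on Ighv9-4, which had 40, 180, 59 and 88 counts in C3H and 45, 115, 68 and 52 in B6 and was not called (log2 fold change 0.39, SE 0.44, edgeR adjusted p = 0.589). Ighv4 had 3.40 to 10.3 CPM in B6 and 0 to 0.115 CPM in C3H, where the 13 counts were all on the pseudogene Ighv4-2.

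Ighv7 ran the other way. It had 4.52, 11.98, 3.81 and 27.5 CPM in B6 and 45.3, 84.4, 64.5 and 79.4 CPM in C3H, 5.73-fold higher in C3H, or 10.1-fold without B6 replicate 5. Ighv7-3 gave 11880 of its 12182 C3H counts, and its share of Ighv counts was 12.4% ± 3.60 in C3H and 1.13% ± 0.888 in B6 (SD, n = 4). Ighv2 was at 25.1 ± 7.45 CPM in B6 and 45.8 ± 11.2 CPM in C3H (SD, n = 4), 1.82-fold higher in C3H with no overlap. Of its 8 tested rows 4 were higher and 2 were lower, against 11.3% and 10.1% of all tested genes. Ighv15 rested on 1 segment, Ighv15-2, with 200, 36, 15 and 13 counts in C3H and 5 over B6; its total was 42.9-fold higher in C3H and 15.2-fold without C3H replicate 1.

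The other subfamilies overlapped between strains in CPM, as a share of Ighv counts, or in both. Ighv3 had means of 49.4 and 49.6 CPM, Ighv5 of 66.4 and 64.9 CPM, Ighv6 of 11.4 and 12.9 CPM, Ighv10 of 20.3 and 9.58 CPM and Ighv14 of 34.3 and 29.4 CPM in B6 and C3H, and in each the libraries overlapped. Within Ighv14, Ighv14-4 alone was called, where 76, 37, 46 and 67 counts in the B6 libraries stood against 846, 292, 532 and 495 in C3H (edgeR adjusted p = 6.0e-05). Ighv8 was at 26.0 and 8.96 CPM with no overlap, but as a share of Ighv counts, 2.64% ± 1.02 and 1.61% ± 0.668 (SD, n = 4), the libraries overlapped. Ighv13 had 2.87, 14.5, 1.16 and 5.48 CPM in B6 and 0.281 to 1.02 CPM in C3H, without overlap, and likewise overlapped as a share. Its C3H level was 0.0877 of that in B6, and 0.166 without B6 replicate 3. Ighv11 and Ighv12 had fewer than 100 counts in all, and Ighv16 had 0. Totals in CPM carry the strain difference in all Ighv counts, so relative to other V segments the C3H values are higher than these folds show: as shares, Ighv3 and Ighv5 were 1.79-fold and 1.81-fold higher in C3H, with overlapping libraries.

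**Figure D3:**
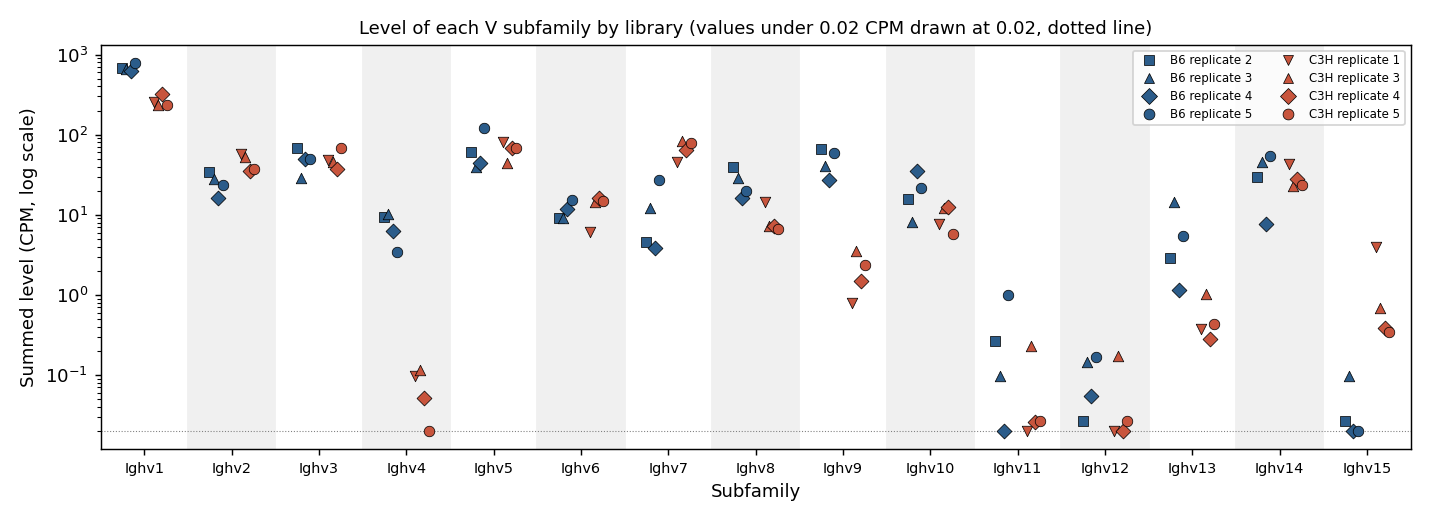
Points give the summed CPM of each subfamily in each library on a log axis, B6 at the left and C3H at the right of each column, with values under 0.02 CPM drawn at 0.02. Ighv1, Ighv4, Ighv8, Ighv9 and Ighv13 lie higher in all B6 libraries, Ighv2, Ighv7 and Ighv15 in all C3H libraries, and the other subfamilies overlap.

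In the GENCODE M21 order, from the D segment side outward, the rows were divided into 3 parts of 62, 62 and 61. The first part, from Ighv5-1 to Ighv3-7, held 23.7% ± 4.63 of Ighv counts in B6 and 45.4% ± 4.34 in C3H (SD, n = 4), and of its 31 tested rows 10 were higher in C3H and 8 were lower. The last part, from Ighv1-43 to Ighv1-86, held 34.3% ± 2.12 and 23.7% ± 5.07, and of its 30 tested rows 2 were higher and 21 were lower. The middle part held 42.1% and 30.9%, with 8 higher and 10 lower of 29. In these shares of Ighv counts the libraries of the strains did not overlap in any part. Of the 90 tested segments together, 22.2% were called higher and 43.3% lower, and of all tested genes 11.3% and 10.1%. In CPM the first part was nearly level, at 240 in B6 and 252 in C3H, and the others were at 412 and 172 and at 340 and 133. The order is that of the B6 reference and may not be that of C3H.

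**Figure D4:**
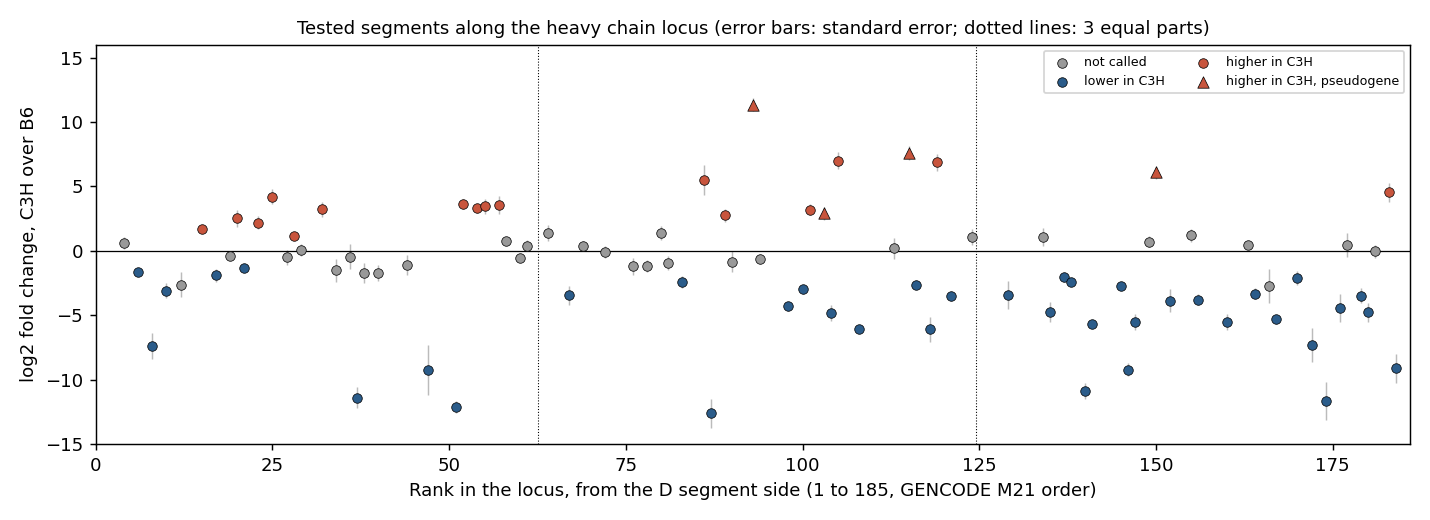
Points are the 90 tested segments by their rank in the locus, with the log2 fold change of C3H over B6 and its standard error; dotted lines mark the 3 parts, and folds of the 11 segments with 0 to 3 counts over a strain depend on the fitted prior and are no bounds. Both directions occur in the first 2 parts, and the last part holds 21 lower segments and 2 higher ones, the pseudogene Ighv1-62 and Ighv1-84.

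Reads from close relatives can be assigned to either row, or dropped, depending on the counting, so rows with near copies are uncertain. Over the 90 tested segments the V exon was 95.9% identical to its nearest other segment at the median, and 57 reached 95%. Of the 59 called segments, the nearest relative was called in the same direction for 19 and in the opposite direction for 12; it was tested and not called for 15 and not tested for 13. In 3 pairs each was the nearest of the other and the calls were opposite. These are Ighv1-55 with Ighv1-62, Ighv1-75 with Ighv1-84, both shown above, and Ighv1-19 with the pseudogene Ighv1-33, which differed at 11 of 304 bases and by 1 missing base. With the members of a pair added, the strains still differed in 2 of the 3. A sum does not test how reads were assigned, since reads may also be dropped. Ighv1-55 and Ighv1-62 summed to 58.2 ± 16.5 CPM in B6 and 10.4 ± 3.46 CPM in C3H, and Ighv1-19 and Ighv1-33 to 34.7 ± 16.4 and 5.92 ± 1.18 CPM (SD, n = 4), 5.60-fold and 5.87-fold higher in B6. Ighv1-75 and Ighv1-84 summed to 20.1 ± 27.6 and 30.2 ± 28.3 CPM (SD, n = 4), less apart than the spread within either strain. Ighv1-62-2 and Ighv1-71 were identical over 313 bases of the V exon, and their counts still differed within libraries. In B6 Ighv1-62-2 had 39, 307, 34 and 136 counts and Ighv1-71 had 3, 15, 1 and 573, so replicate 3 was highest for the former and replicate 5 for the latter. In C3H they had 11, 5, 0 and 19 and 23, 30, 2 and 23 counts, and Ighv1-62-2 was called lower in C3H (log2 fold change -3.86, SE 0.90, edgeR adjusted p = 0.01001) while Ighv1-71 was not called (edgeR adjusted p = 0.187). The pairs were picked after their values were seen.

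A segment was taken as a peak of 1 library where its CPM was at least 5 times that of the next library of the strain and it held at least 1% of that library's Ighv counts. There were 8 such peaks in B6 and 0 in C3H. B6 replicate 5 had 4, replicates 2 and 3 had 2 each and replicate 4 had 0, and the peaks held 13.4%, 4.85% and 10.97% of the Ighv counts of replicates 5, 2 and 3. Ighv1-78 (ENSMUSG00000096326) had 2.44, 65.2, 9.07 and 1.13 CPM in B6, so that replicate 3 stood 7.19 times above the next and gave the segment 7.02% of its Ighv counts. The C3H libraries had 18.0, 33.0, 29.7 and 25.3 CPM, and the strains were not called apart (edgeR adjusted p = 0.783); without B6 replicate 3 the segment was higher in C3H (log2 fold change 2.64, edgeR adjusted p = 0.00887). Ighv1-75 had 4.09, 9.26, 1.35 and 60.4 CPM in B6, where replicate 5 held 5.10% of its Ighv counts on this segment, and 0.0589, 0.192, 0.0512 and 0.161 CPM in C3H. It was lower in C3H (log2 fold change -7.30, SE 1.33, edgeR adjusted p = 0.00227), with -5.35 without B6 replicate 5, and the call was lost with limma-voom (adjusted p = 0.0854).

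Subfamily Ighv14 gave 3 of the 8 peaks, each in another library. Ighv14-1 reached 36.7 CPM in B6 replicate 3 against 0.499 to 4.40 CPM in the other B6 libraries, and 3.12 to 11.3 CPM in C3H. Ighv14-2 reached 21.1 CPM in B6 replicate 2 against 3.63 to 4.05 CPM, and 1.10 to 4.59 CPM in C3H. Ighv14-3 reached 44.9 CPM in B6 replicate 5 against 2.59 to 5.23 CPM, and 4.48 to 10.5 CPM in C3H. None of the 3 was called between strains (edgeR adjusted p = 0.798, 0.0779 and 0.383), although Ighv14-2 was lower in C3H without C3H replicate 1 (log2 fold change -2.17, edgeR adjusted p = 0.0432) and with no filter on low counts. Ighv14-2 was also called lower on the 6 libraries of replicates 3, 4 and 5, which leave out its peak library. There the log2 fold change was -1.155 with a replicate block and -1.108 without (edgeR adjusted p = 0.0130 and 0.0114). Without the peak library the log2 fold changes were 1.86, -0.63 and 0.81, so for Ighv14-1 and Ighv14-3 the sign turned.

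Ighv1-82 had 7.73, 7.18, 6.84 and 38.9 CPM in B6 and 16.2, 12.6, 19.0 and 11.95 CPM in C3H. The means were level (log2 fold change -0.03, SE 0.51, edgeR adjusted p = 0.978), and without B6 replicate 5 the segment was higher in C3H (log2 fold change 1.04, edgeR adjusted p = 0.00169). Ighv7-1 had 14.1 CPM in B6 replicate 5, 12.1 times the next B6 library, and 0.797 to 1.16 CPM in the others, and 0.864 to 2.82 CPM in C3H. Its log2 fold change was -1.52 (SE 0.86, edgeR adjusted p = 0.251), and 0.56 without that library. The eighth peak was Ighv9-1 in B6 replicate 2, at 28.4 CPM against 0.296 to 4.37 CPM. Ighv1-47 fell just short, with 11.3 CPM in B6 replicate 5, 0.952% of its Ighv counts, against 0.345 to 1.23 CPM. It was called lower in C3H near the threshold (edgeR adjusted p = 0.0459), overlapped between strains and was not called without that library (log2 fold change -1.14, edgeR adjusted p = 0.231), without any 1 of the 4 C3H libraries (0.0737 to 0.105), on library totals (0.0542) or with robust dispersion or limma-voom (0.157 and 0.204). Ighv1-74, the other fall near the threshold, had 0.717 to 8.87 CPM in B6 and 0.730 to 1.48 CPM in C3H (edgeR adjusted p = 0.0204), and its call was lost without B6 replicate 3 (0.0595) and without C3H replicate 3 or 4 (0.0602 and 0.0574), with robust dispersion (0.0887) and with limma-voom (0.109).

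**Figure D5:**
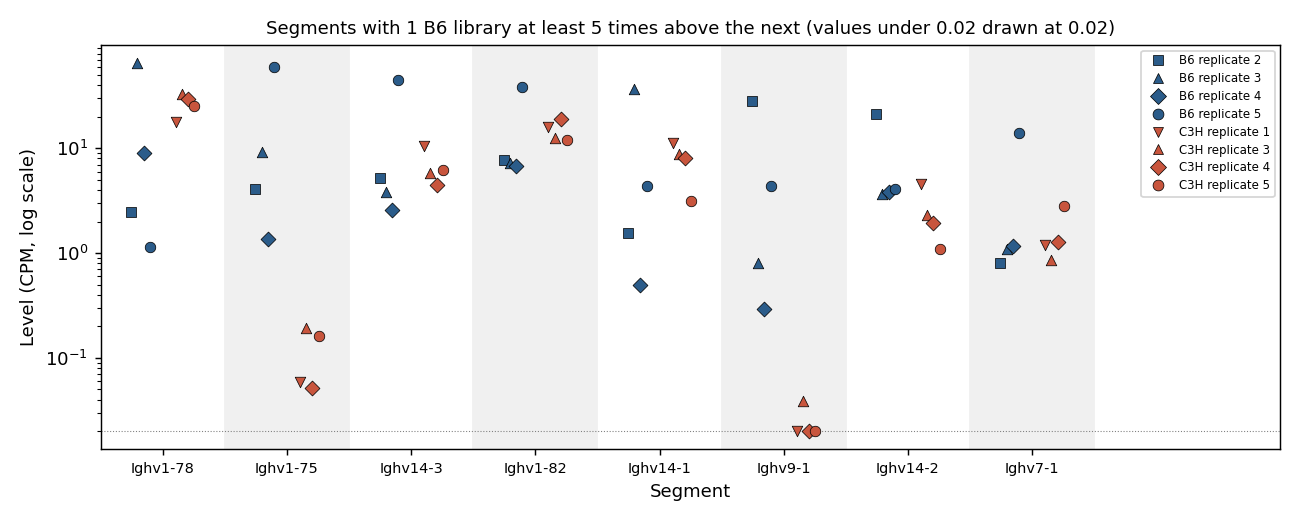
Points give the CPM of the 8 peak segments in each library on a log axis, with values under 0.02 CPM drawn at 0.02. A single B6 library stands at least 5 times above the other B6 libraries in each column, and in 6 of the 8 columns the C3H libraries overlap the B6 libraries; those of Ighv1-75 and Ighv9-1 lie below all of them.

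B6 replicate 3, which had 2 of the peaks, was also the library with the highest B cell markers, with 301 counts of Ms4a1, the B cell surface protein CD20, against 2 to 10 in the other B6 libraries. Replicate 5, with 4 peaks, was at 17.1 CPM over the 8 markers, and replicates 2 and 4, with 2 and 0 peaks, at 13.7 and 13.1 CPM. The peaks say nothing of the number of clones behind them, since counts are per V segment and carry no junction sequence.

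Evenness over the Ighv rows, which are named for B6 segments, did not separate the strains. Evenness over the segments of C3H's own germline was not tested. The 10 leading segments took 54.2% ± 2.87 of Ighv counts in B6 and 54.1% ± 3.89 in C3H (SD, n = 4), and the inverse Simpson index, the number of equally used segments that would give the same evenness, was 24.7 ± 3.11 and 22.8 ± 4.05. Thinned to 20209 Ighv counts, the lowest total, a library was expected to show 99.3 ± 4.85 segments in B6 and 101 ± 3.26 in C3H (SD, n = 4), and the libraries overlapped in all of these. The most used segment of a library was Ighv1-39, Ighv1-26, Ighv1-12 and Ighv1-55 in B6 replicates 2 to 5, at 6.89% to 14.5% of Ighv counts. In C3H it was Ighv5-17 in replicate 1, Ighv7-3 in replicates 3 and 5 and Ighv1-84 in replicate 4, at 8.19% to 15.8%. Segments with at least 20 CPM on average varied by a median coefficient of variation of 45.1% over 14 segments in B6 and 27.6% over 6 segments in C3H. The ranges were 24.2% to 118% and 20.4% to 94.4%. Only 2 segments are in both sets, so the medians do not compare the spread of the same segments.

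Of 34 other genes of the heavy chain and B lineage (constant and joining segments, light chain constant regions, and genes of B and plasma cells), 28 were tested. Of these 28, 0 were higher in C3H, against 11.3% of all tested genes, and 3 were lower, against 10.1%, at an edgeR adjusted p under 0.05. The share that was lower was near the background. The 3 were Jchain, given above, Tnfrsf17, which encodes the plasma cell survival receptor BCMA, and Ighg2c, an IgG constant region. Tnfrsf17 was at 2.74 ± 0.211 CPM in B6 and 1.70 ± 0.130 CPM in C3H (SD, n = 4; log2 fold change -0.68, SE 0.13, edgeR adjusted p = 0.00286). Ighg2c was at 1.62, 8.97, 1.85 and 1.26 CPM in B6 and 0.648, 0.288, 0.230 and 0.564 CPM in C3H (log2 fold change -2.96, SE 0.67, edgeR adjusted p = 0.00846). B6 replicate 3, the library with the highest B cell markers, was the high one, and without it the log2 fold change was -1.86 (edgeR adjusted p = 0.00276). Like the V segment rows, the Ighg2c row belongs to the heavy chain locus of the B6 reference, and haplotypes differ there. What its count stands for in C3H was not tested. Igkc, Ighm and the joining segments Ighj2, Ighj3 and Ighj4 did not pass. Of 8 plasma cell markers 0 were called higher and 2, Jchain and Tnfrsf17, were called lower. Those not called had log2 fold changes of 0.28 (Mzb1), 0.22 (Sdc1), -0.14 (Irf4), -0.16 (Xbp1), -0.30 (Derl3) and -0.34 (Prdm1). All 8 together summed to 1400 to 1661 CPM in B6 and 1010 to 1275 CPM in C3H. Jchain made up most of that sum, with means of 1194 and 858 CPM. Of 7 tested B cell markers 0 were called in either direction. Rag1 and Rag2, which cut the DNA in V(D)J joining, were at 0 or close to it in every library, at most 0.0112 CPM on average in a strain. The part of these genes in the V segment differences was not tested.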

How the data were processed

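Jejunum RNA gave 8 libraries, made with the Illumina Stranded mRNA kit from 200 ng each (integrity above 7), per the labels' protocols, and the labels put all in batch 1. Alignment used STAR 2.7.9a on GRCm39 and counting used HTSeq 2.0.2, per the submitters' processing notes. The sources used here do not give the annotation release, the strand setting or the treatment of multiply aligned reads. The authors deposited raw counts per gene for 56941 Ensembl identifiers. Symbols, biotypes, segment order and V exon sequences were taken from GENCODE M21, in which 51948 of these identifiers have a symbol and 4993 lack one. It describes the older build GRCm38, and coordinates were therefore left out. No Ighv promoter or protein sequence was used here.

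Strain came from the sample titles. The whole count table was fitted in edgeR 4.0.16 (R 4.3.3) by quasi-likelihood, after TMM scaling and filterByExpr (minimum count 10), and p-values were adjusted by Benjamini and Hochberg over 18025 genes at a threshold of 0.05. The script was tested on simulated data. Every log2 fold change is C3H relative to B6, CPM uses TMM-scaled library sizes, and each SE was derived from the fold change and its F value. Totals, subfamilies and peaks were described without a test. Segments named by rule were the 6 most abundant per strain, the 6 per direction with most counts at 0 to 3 counts in the other strain, the 5 largest called changes per direction with at least 10 counts in the lower strain, the 3 called nearest to the threshold, up to 8 peaks and the least changed segments of at least 20 CPM in both strains. Others complete a class or pair and were chosen after their values were seen. The members and lists were chosen with earlier results of these data known.

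V exons were compared by global alignment, and the nearest segment is the one of highest identity. Alternatives were DESeq2 1.42.0 and its size factors, upper-quartile factors, library totals, no filter, a mean of at least 100 counts, limma-voom (limma 3.58.1), robust dispersion, a stricter threshold (0.01), a replicate block and each library left out in turn.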

Additional observations from a re-analysis of the deposited data

Results flagged for a closer look

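In 74 groups of 4 libraries (the named segments in each strain and the summary values), 16 held a library that stood apart by Dixon's criterion, the gap to the nearest library over the group's range. Chance flags about 1 in 20 groups. No flag was on a C3H library for a segment that is abundant in C3H.

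Of these, 11 were the high B6 library of an abundant or called segment. In B6 replicate 5 these were Ighv7-1 at 14.1 CPM, Ighv14-3 at 44.9 CPM, Ighv1-9 at 36.9 CPM, Ighv1-47 at 11.3 CPM, Ighv1-75 at 60.4 CPM and Ighv1-82 at 38.9 CPM. In B6 replicate 3 they were Ighv14-1 at 36.7 CPM and Ighv1-78 at 65.2 CPM. In B6 replicate 2 they were Ighv14-2 at 21.1 CPM, Ighv9-1 at 28.4 CPM and Ighv1-81 at 89.5 CPM.

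The other 5 were the highest library of a strain in which the segment was near 0. In B6 these were Ighv1-14 at 0.0371 CPM and Ighv1-62 at 0.353 CPM in replicate 5 and Ighv1-33 at 0.0185 CPM in replicate 4. In C3H replicate 3 they were Ighv9-1 at 0.0384 CPM and Ighv9-3 at 0.0192 CPM. Apart from Ighv1-62, with 19 counts, each rests on 1 or 2 counts.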

How the results depend on the processing

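The count of 20 segments higher in C3H was 14 to 28 under the alternatives other than no filter on low counts, under which it was 33, of which 20 were the original calls; the count of 39 lower was 31 to 48. With each library left out in turn the counts were 19 to 28 and 39 to 42. The strains share the replicate numbers 3, 4 and 5. Same-numbered libraries deviated together only weakly (correlations 0.109, 0.136 and -0.0437), so the numbers were not taken to pair the samples. With a replicate block on those 6 libraries, 22 segments were higher and 40 lower; without the block the same libraries gave 20 and 39. The Ighv total in C3H was 0.561 of that in B6, and 0.532 to 0.5995 with a library left out. Segments seen in B6 only numbered 6, or 10 with up to 3 counts allowed over C3H. Those seen in C3H only numbered 0, 2 with up to 3 counts allowed over B6, 1 with a minimum of 3 counts per library, and 0 to 1 with a library left out. The 8 peaks of B6 became 12 at 3 times the next library, 1 at 10 times, 10 at a share of 0.5% (adding Ighv1-47 and Ighv1-71) and 6 by percent of Ighv counts, without Ighv14-2 and Ighv1-82. In C3H there was 1 peak at 3 times the next library (Ighv3-8, replicate 5) and 1 at a share of 0.5% (Ighv15-2, replicate 1). Over the named segments' log2 fold changes, 550 of the alternative values kept direction and call, 24 lost the call and 7 gained it, and 16 changed sign, all of 5 segments not called with all libraries. Ighv5-17 went from 0.07 to -0.19 on the 6 libraries without the block and to -0.20 to 0.96 with a library left out. Ighv14-1 went from -0.44 to 1.197 with limma-voom, 0.0076 with the replicate block and -0.85 to 1.86 with a library left out. Ighv1-82 went from -0.03 to 0.027 on library totals, 0.37 with limma-voom, 0.21 with the replicate block and -0.28 to 1.04 with a library left out, the last a call. Ighv7-1 and Ighv14-3 ranged from -1.97 to 0.56 and from -1.42 to 0.81 with a library left out. The cause of these changes was not tested, apart from those made by fewer counts required. Rows at a few counts set the limit of depth: a segment with 0 counts over 4 libraries may still be present below 3 counts.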
